A study of Mus musculus with 33 samples.

Results

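Acute phase genes are genes whose products change in blood or tissue during inflammation, and 10 of them were followed in the kidney: the fibrinogen chain genes Fga, Fgb and Fgg, Cp (ceruloplasmin), Hp (haptoglobin), Saa1 and Saa3 (serum amyloid A), the transcription factor genes Cebpb and Cebpd, and Socs3. They were chosen by name with earlier results of these data known, so their counts beside all probe sets are a description. Each gene was represented by the brightest of the probe sets annotated to it alone. In this way 17097 genes could be named. Whole kidneys of BWF1 mice, the NZB X NZW F1 cross that develops lupus nephritis, were profiled on 33 microarrays with 1 array per mouse. The treated mice were females that had received an adenovirus vector carrying a mouse IFNα gene by intravenous injection (Adv-IFNα BWF1), with kidneys of 5 mice collected at weeks 1, 2, 3, 5, 7 and 9 each. Another 3 BWF1 mice were untreated. The labels give no age for any mouse and no collection week for the untreated mice, which the study describes as matched in age, and no group with an empty vector was analysed here, so the effects of vector, interferon and age cannot be told apart. In a whole organ, more cells of a type and more RNA per cell cannot be told apart either.

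In the acute phase response, interleukin 6 and its relatives signal through the receptor chain gp130 and the transcription factor STAT3, while interleukin 1 signals through NF-κB, and C/EBPβ and C/EBPδ join them at the promoters of the responding genes. SOCS3 is made in response to STAT3 and damps the same receptors. The liver is the main source of the secreted proteins, but kidney epithelium can also transcribe fibrinogen, ceruloplasmin, haptoglobin and serum amyloid A genes. All values below are log2 RMA values, a normalized array signal on which a difference of 1 is a doubling. Averaged over the 33 arrays, the probe sets of Fga, Fgg and Cp were brighter than 88.8%, 89.5% and 87.9% of all probe sets, those of Cebpb, Cebpd and Hp brighter than 75.6%, 65.1% and 64.9%, and that of Fgb brighter than 55.2%. The probe sets of Saa3, Socs3 and Saa1 were dim, with 42%, 41.5% and 24.5% of probe sets below them, and changes of dim probe sets are compressed. Probe sets differ in how brightly they report the same amount of RNA, so these shares do not order the genes by abundance.

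Across the arrays, medians lay between 3.97 and 4.09 and correlations between 0.9654 and 0.9938. The 3′/5′ log2 ratio of the beta-actin control probe sets, a measure of RNA integrity and labelling, was 1.95 ± 0.11 in treated kidneys (SD, n = 30) and 1.57 ± 0.16 in untreated kidneys (SD, n = 3), and 29 of the 30 treated arrays lay above the highest untreated one. For weeks 7 and 9, values adjusted for this ratio stand beside a result where the call or the direction differs, or where a called value moves by over 1.5 times. Before week 7, the changes of these genes that turned sign under this adjustment were among those of Saa1, Hp, Cebpb and Cebpd, none of them called. Genes of the lists and cell type markers below were not read with this adjustment, so their calls may depend on it. Over all probe sets it took the week 9 calls from 2885 higher and 3393 lower to 1506 and 699.

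In the fit of all arrays, the acute phase genes gave no call up to week 5 after Adv-IFNα. Several rose at weeks 7 and 9, led by Cp, Fgg, Fga and Cebpd. A gene was called when its limma adjusted p (Benjamini-Hochberg over 45037 probe sets) was below 0.05. At weeks 1, 2 and 3, 0 of the 10 genes were called in either direction, and their changes against untreated kidneys lay between -0.49 and 0.41 on the log2 scale. Over all probe sets, 1.00% were called higher and 0.426% lower at week 1, 0.877% higher and 0.449% lower at week 2, and 1.07% higher and 0.302% lower at week 3. At week 5, 0 of 10 were called, beside 1.85% of all probe sets higher and 1.11% lower, and their median change was 0.43 against -0.01 over all probe sets. The fit takes 1 spread from all 7 groups. With week 5 and untreated arrays alone in the fit, Fgg was called at week 5 (adjusted p = 0.0291). At week 7, 6 of 10 were called higher (Cp, Fgg, Fga, Cebpd, Saa3 and Cebpb) and 0 lower, beside 9.85% of all probe sets higher and 5.82% lower (4438 and 2619 probe sets, or 3693 and 3744 after quantile normalization of the deposited values). At week 9, 4 of 10 were called higher (Cp, Fgg, Fga and Cebpd) and 0 lower, beside 6.41% higher and 7.53% lower. The median change of the 10 genes was 0.78 at week 7 and 0.63 at week 9, where the medians over all probe sets were 0.02 and -0.06. Markers of macrophages and monocytes were higher at the same weeks (9 of 11 called higher at each). Of 13 hepatocyte markers, 0 were called higher, and 3 were called lower at week 7 and 4 at week 9. The part of either cell type in the changes of the 10 genes was not tested.

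**Figure D1:**
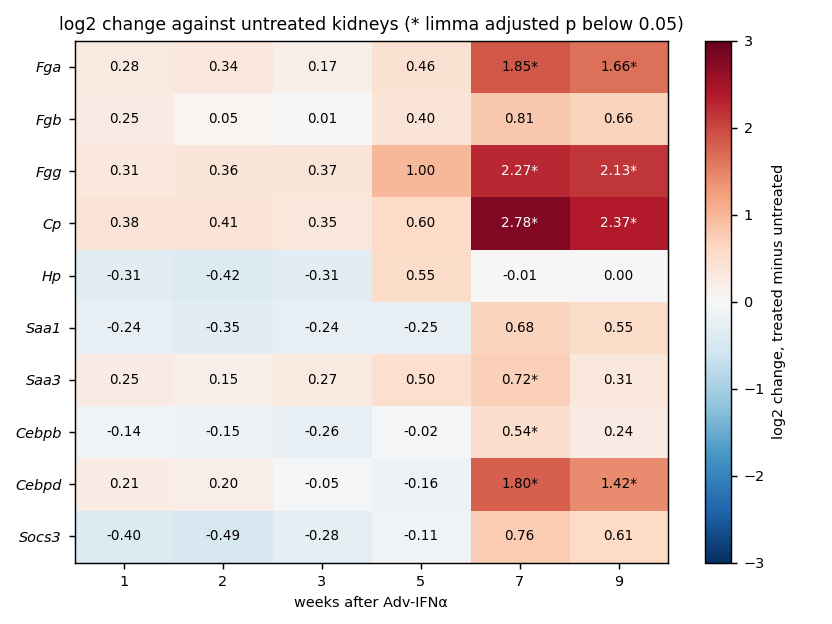
Log2 change of each acute phase gene (rows) against untreated kidneys at each collection week (columns, weeks after Adv-IFNα), coloured from blue (lower) to red (higher), with an asterisk where the limma adjusted p was below 0.05. Asterisks stand in the columns of weeks 7 and 9 alone, with the darkest red for Cp (2.78 and 2.37).

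For 4 genes (Fga, Fgg, Cp and Cebpd) every kidney of week 7 lay above every untreated kidney, and the same 4 did so at week 9, whereas 9.06% of all probe sets did so at week 7 and 5.96% at week 9. An exact two-sided permutation test of 5 against 3 kidneys gave each of them p = 0.0357 at both weeks, the smallest value this design allows. At week 5 the groups did not overlap for Fgg and Cp, beside 4.9% of all probe sets, and at week 2 Cp lay above the untreated kidneys throughout, beside 4.11%. Saa1 lay below them throughout at week 2 (5.02% of all probe sets) and at week 3 (3.57%), although its changes adjusted for the beta-actin ratio were 0.30 and 0.36 (adjusted p = 0.883 and 0.799). None of these earlier differences passed the limma test in the fit of all arrays.

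**Figure D2:**
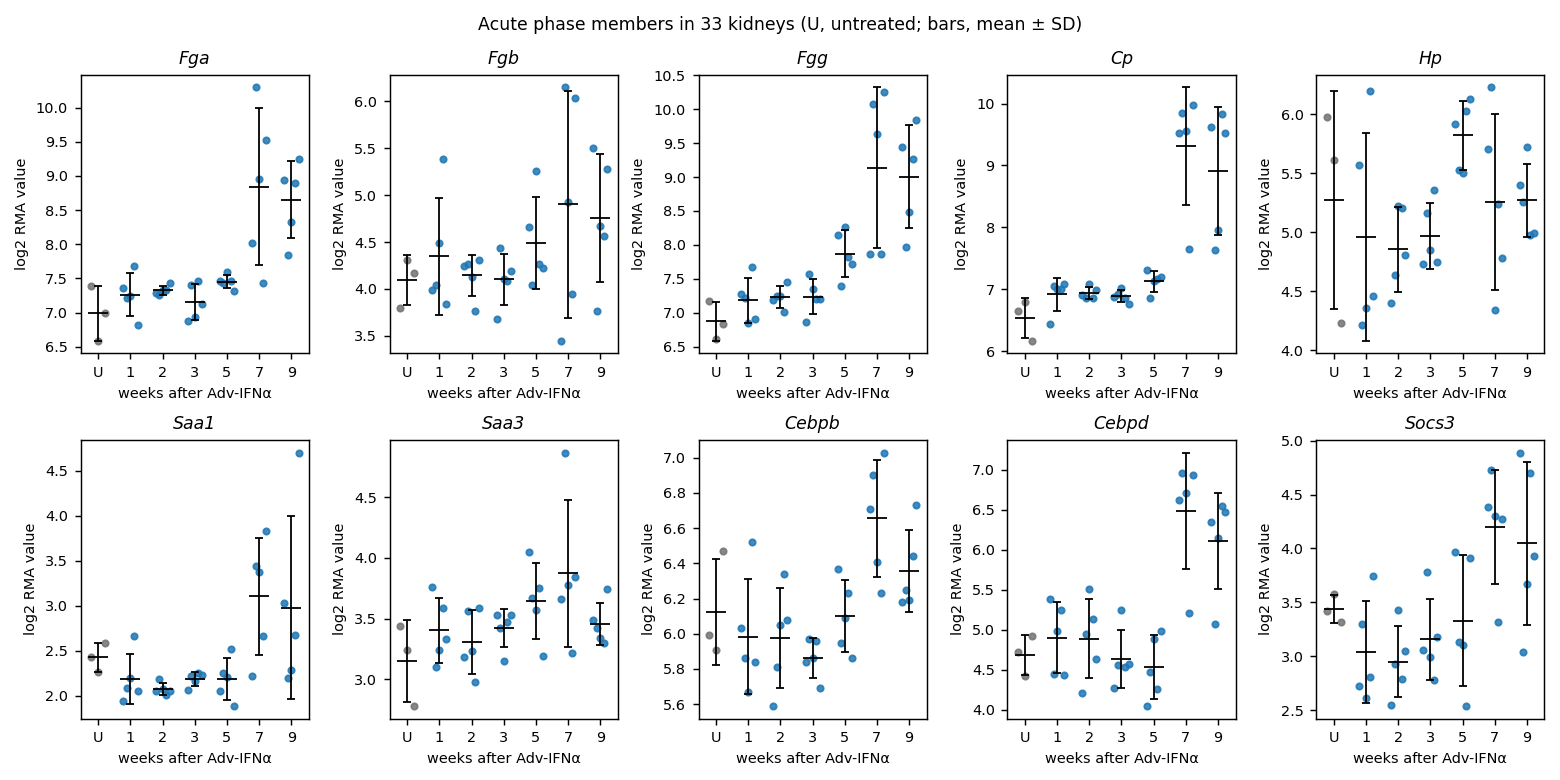
Log2 RMA values of the 10 acute phase genes (1 panel each, own vertical scale) in untreated kidneys (U, grey, n = 3) and at each week after Adv-IFNα (blue, n = 5 per week), 1 point per kidney, with bars for mean ± SD. The points of weeks 7 and 9 spread widely for Fga, Fgg, Cp and Cebpd, with 1 or more kidneys of each week close to the earlier weeks, while Hp shows no step.

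Fibrinogen is built from pairs of 3 chains, Aα, Bβ and γ, that are encoded by Fga, Fgb and Fgg and assembled before secretion, and thrombin turns it into fibrin. The 3 genes are neighbours on chromosome 3, where Fgg lies next to Fga, and a non-coding gene, Gm40075, lies between Fga and Fgb in the RefSeq annotation. Because the chain genes and Cp carried the strongest changes or moved with them, the 250 bases before their starts are shown, 5′ to 3′ on the strand of the gene, from RefSeq on GRCm38.p6. The regions are chr3:83025903-83026152 on the plus strand for Fga, chr3:83049864-83050113 on the minus strand for Fgb, chr3:83007474-83007723 on the plus strand for Fgg, and chr3:19956999-19957248 on the plus strand for Cp, which is the second of its 2 annotated starts. Capitals mark matches on either strand to TTCNNNGAA (the STAT consensus), CTGGGAA (the interleukin 6 response element known from fibrinogen genes), TTGCNNAA (C/EBP), GGNNTTTCC (NF-κB) and GTTAATNAT (HNF1, a factor of liver and kidney epithelium).
Fga: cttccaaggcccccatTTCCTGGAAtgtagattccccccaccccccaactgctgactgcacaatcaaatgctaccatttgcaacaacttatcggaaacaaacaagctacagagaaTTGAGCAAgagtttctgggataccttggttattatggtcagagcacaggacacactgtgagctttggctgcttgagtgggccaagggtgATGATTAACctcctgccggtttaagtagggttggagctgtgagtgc
Fgb: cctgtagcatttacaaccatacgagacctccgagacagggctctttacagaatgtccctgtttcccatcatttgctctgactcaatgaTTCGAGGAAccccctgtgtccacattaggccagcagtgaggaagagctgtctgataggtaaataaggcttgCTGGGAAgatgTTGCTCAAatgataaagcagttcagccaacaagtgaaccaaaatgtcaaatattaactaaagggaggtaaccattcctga
Fgg: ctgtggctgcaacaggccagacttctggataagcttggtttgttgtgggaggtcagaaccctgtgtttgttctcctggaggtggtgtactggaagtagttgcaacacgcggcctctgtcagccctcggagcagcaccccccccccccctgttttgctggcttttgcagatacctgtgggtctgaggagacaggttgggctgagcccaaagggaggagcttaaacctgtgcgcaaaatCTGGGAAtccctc
Cp: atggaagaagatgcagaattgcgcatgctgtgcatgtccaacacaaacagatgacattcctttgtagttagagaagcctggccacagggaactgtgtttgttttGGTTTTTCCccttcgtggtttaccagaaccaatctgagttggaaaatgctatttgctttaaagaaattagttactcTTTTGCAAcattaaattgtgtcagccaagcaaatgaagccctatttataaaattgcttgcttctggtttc
In Fga the STAT match began 234 bases before the start, the C/EBP match 135 and the HNF1 match 46. Fgb held a STAT match at 162 bases, CTGGGAA at 91 and a C/EBP match at 80. Fgg held CTGGGAA 13 bases before its start. The Cp region held an NF-κB match at 146 bases and a C/EBP match at 70, and an HNF1 match lay 197 bases before the other Cp start. Promoter sequences were found for 8 of the 10 genes (9 sequences, searched from 250 bases before to 50 bases after the start). Among the other members, Socs3 held a STAT match at 154 bases, Saa1 a C/EBP match at 182, and Saa3 a C/EBP match at 99 and an NF-κB match at 187. Of all 32851 promoter windows of that length, 8.3% held the STAT letters, 11.1% CTGGGAA, 10.8% the C/EBP letters, 5.82% the NF-κB letters and 0.801% the HNF1 letters. TATAAA, also searched on both strands, was found in Cebpb and Cp and in 13.6% of all promoters. CTGGGAA and TTCNNNGAA can share letters, but no match of one motif overlapped a match of another in the sequences shown. A match describes the letters alone.

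Among the fibrinogen genes, Fgg and Fga rose at weeks 7 and 9, and Fgb, the dimmest of the 3 probe sets, was higher in some late kidneys without passing the test. Fgg had values of 7.86, 10.08, 9.63, 7.87 and 10.26 at week 7, and 7.17, 6.61 and 6.83 in untreated kidneys. At week 9 Fgg had 9.45, 7.97, 8.48, 9.27 and 9.84. All 10 late kidneys lay above the untreated ones, and they ran from 7.86 to 10.26. The change was 2.27 ± 0.40 (SE) at week 7, or 4.83-fold (adjusted p = 1.6e-04), and 2.13 ± 0.40 at week 9, or 4.39-fold (adjusted p = 4.87e-04). Adjusted for the beta-actin ratio the week 9 change was 3.33 (adjusted p = 3.13e-04). Week by week Fgg averaged 6.87 ± 0.28 in untreated kidneys (SD, n = 3), then 7.18 ± 0.33, 7.23 ± 0.16, 7.24 ± 0.26, 7.87 ± 0.35, 9.14 ± 1.19 and 9.00 ± 0.76 at weeks 1, 2, 3, 5, 7 and 9 (SD, n = 5 each). The means of weeks 1 to 3 lay within 1 SD of each other, and those of weeks 7 and 9 did as well.

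At week 5 Fgg, like Cp, lay above all untreated kidneys, beside 4.9% of all probe sets. The Fgg values there were 8.15, 7.39, 8.26, 7.82 and 7.72, each above the 3 untreated values, and the change was 1.00 ± 0.40 (95% interval 0.19 to 1.82, adjusted p = 0.170). It was called with week 5 and untreated arrays alone in the fit (adjusted p = 0.0291), and adjusted for the beta-actin ratio it was 1.83 (adjusted p = 0.0248). The exact two-sided permutation p of 5 against 3 kidneys was 0.0357, the value that any such groups without overlap give. Over all fits that left out 1 kidney, the week 5 change of Fgg stayed between 0.87 and 1.15. At the same week 3 of 11 macrophage and monocyte markers were called higher, and 0 of 13 hepatocyte markers. Replicate 3, at 8.26, also had the highest summed hepatocyte marker signal of its week, 2036. The other week 5 kidneys had 902 to 1228 and untreated kidneys 1013 to 1141. The part of either cell type in the Fgg change was not tested.

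Fga rose at weeks 7 and 9 as well. It had 8.02, 10.30, 8.96, 7.43 and 9.52 at week 7, and 7.39, 6.59 and 6.99 in untreated kidneys. At week 9 Fga had 8.94, 7.84, 8.33, 8.90 and 9.25. The lowest week 7 kidney, at 7.43, lay barely above the highest untreated one, while the week 9 kidneys lay clear of them. The change was 1.85 ± 0.36 (SE), or 3.62-fold, at week 7 (adjusted p = 4.65e-04) and 1.66 ± 0.36, or 3.16-fold, at week 9 (adjusted p = 0.00192). With untreated and week 7 arrays alone the week 7 call was lost (adjusted p = 0.058), and adjusted for the beta-actin ratio the changes were 2.89 at week 7 and 2.78 at week 9. At week 5 the Fga values were 7.46, 7.44, 7.59, 7.46 and 7.32, with a change of 0.46 (adjusted p = 0.548).

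Fgb had 3.45, 6.15, 4.93, 3.95 and 6.03 at week 7, and 3.80, 4.31 and 4.17 in untreated kidneys. Week 9 kidneys had 5.50, 3.76, 4.67, 4.56 and 5.28. The groups overlapped at both weeks, with 3 of 5 kidneys at week 7 and 4 of 5 at week 9 above all untreated kidneys and 1 below them at each week. Its changes were 0.81 at week 7 (95% interval -0.07 to 1.68, adjusted p = 0.210) and 0.66 at week 9 (-0.22 to 1.53, adjusted p = 0.322). Adjusted for the beta-actin ratio, Fgb was called at both weeks, with 1.99 (adjusted p = 0.012) and 1.95 (adjusted p = 0.0299), and the week 7 change was 1.17 without replicate 1 of week 7 (adjusted p = 0.046), 0.50 without replicate 2 (adjusted p = 0.477) and 0.53 without replicate 5 (adjusted p = 0.464). The highest Fgb values of the early weeks were 5.38 in replicate 4 of week 1 and 5.26 in replicate 3 of week 5. Those arrays also had the highest albumin signal of their weeks, with Alb at 8.71 and 9.72, where the other kidneys of weeks 1 and 5 had 5.63 to 7.34.

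Kidneys of the same late week differed in fibrinogen signal, and the chains varied together between them. Over the 10 kidneys of weeks 7 and 9, each value taken relative to its week's mean, Fga and Fgg had a Pearson r of 0.94 (permutation p = 6e-05, adjusted 0.0018) and a Spearman rho of 0.94 (adjusted 0.00428), and r was 0.99 without the 2 kidneys farthest from the median of Fga. For Fgb and Fgg r was 0.93 (permutation p = 2.5e-04, adjusted 0.00252), rho 0.93 (adjusted 0.00428), and r without 2 kidneys 0.91. For Fga and Fgb r was 0.91 (permutation p = 2.8e-04, adjusted 0.00252), rho 0.92 (adjusted 0.00432), and r without 2 kidneys 0.92. So Fgb tracked the other chains between kidneys although its weekly means did not pass the test against untreated kidneys. Saa1 followed Fgg with r 0.81 (permutation p = 0.00325, adjusted 0.0159) and rho 0.93 (adjusted 0.00428), and 0.80 without 2 kidneys. For Hp, r was 0.07, -0.01 and -0.25 against Fga, Fgb and Fgg (adjusted permutation p of 0.57 to 0.989). The adjustment covers all 45 pairs of members, and each week alone holds 5 kidneys, too few for an r of its own. No r is given for pairs with Cp, Saa3 or Cebpd, whose late values fell into separate groups (a gap wider than 0.45 of their range, a limit set after the values were seen), which leaves 21 pairs.

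**Figure D3:**
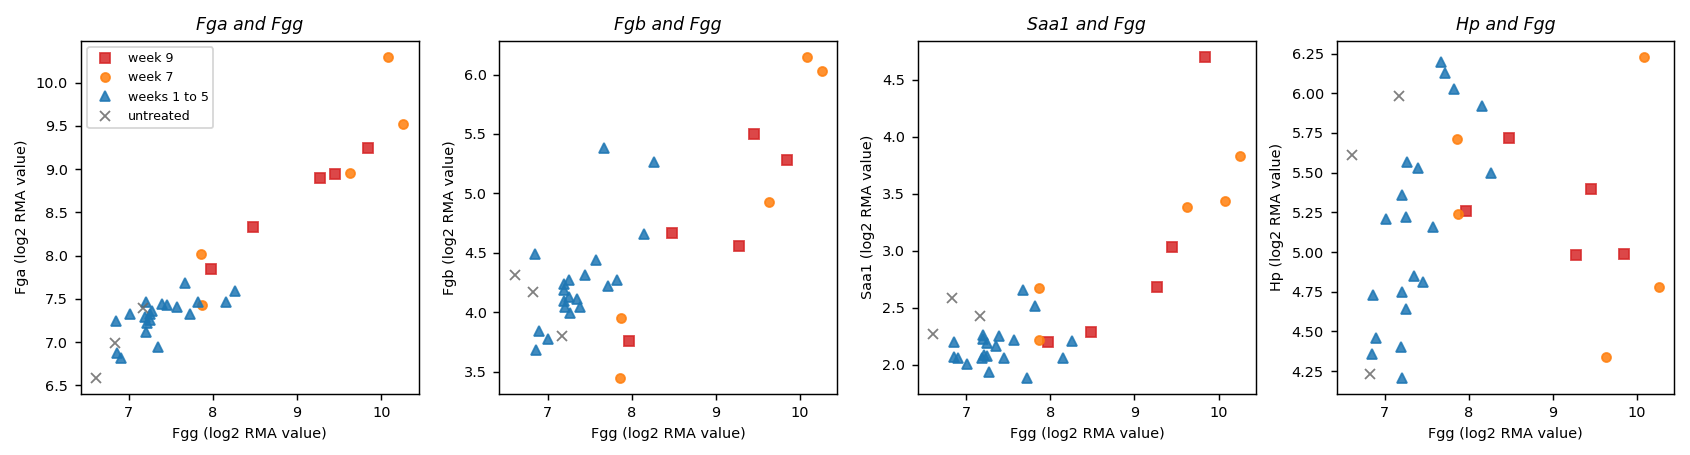
Fga, Fgb, Saa1 and Hp (vertical axes, log2 RMA value) against Fgg (horizontal axis, log2 RMA value), 1 point per kidney, for week 9 (red squares), week 7 (orange circles), weeks 1 to 5 (blue triangles) and untreated kidneys (grey crosses). Late kidneys run along a rising line for Fga, Fgb and Saa1, and Hp shows no such line (r = -0.25 in late kidneys).

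Of 22 genes of fibrin formation, fibrin removal and fibrinogen binding, 21 were measured. At week 7, 10 were called higher and 2 lower, and at week 9, 9 higher and 3 lower, with medians of 0.41 and 0.34. Over all probe sets, 9.85% were called higher and 5.82% lower at week 7, and 6.41% and 7.53% at week 9. The medians over all probe sets were 0.02 and -0.06. These shares and medians also stand beside every list below. At week 5, 5 were called higher (Itgb2, Icam1, F13a1, Itgb3 and Thbd) and 0 lower. The largest week 9 changes were those of Itgb2, the β chain of the leukocyte integrins (1.98, adjusted p = 2.81e-05), Icam1, an adhesion receptor that can bind fibrinogen (1.74, adjusted p = 3.88e-05), F5, coagulation factor V (-1.43, adjusted p = 0.0172), and F3, tissue factor, which starts coagulation (1.29, adjusted p = 6.27e-04). The other 2 that fell at week 9 were F13b (-1.12), a carrier of the enzyme that cross-links fibrin, and Plg (-0.59), the precursor of the enzyme that dissolves it. The list thus held calls in both directions.

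Ceruloplasmin, the copper-carrying ferroxidase encoded by Cp, had the largest change of the 10 genes by its brightest probe set in the fit of all arrays. Cp had 9.53, 9.85, 9.56, 7.65 and 9.98 at week 7, and 6.64, 6.79 and 6.17 in untreated kidneys. At week 9 it had 9.62, 7.63, 7.95, 9.83 and 9.53. The groups did not overlap, and the late kidneys themselves fell into 2 sets, with 3 kidneys between 7.63 and 7.95 and the other 7 between 9.53 and 9.98. The change was 2.78 ± 0.38 (SE), or 6.86-fold, at week 7 (adjusted p = 6.23e-06) and 2.37 ± 0.38, or 5.19-fold, at week 9 (adjusted p = 8.54e-05). Over all fits that left out 1 kidney, it stayed between 2.59 and 3.19 at week 7 and between 2.15 and 2.69 at week 9.

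Before week 7, Cp averaged 6.54 ± 0.33 in untreated kidneys (SD, n = 3) and 6.92 ± 0.27, 6.94 ± 0.10, 6.88 ± 0.09 and 7.13 ± 0.17 at weeks 1, 2, 3 and 5 (SD, n = 5 each). The week 5 values were 7.31, 6.85, 7.14, 7.16 and 7.19, all above the untreated ones, and the change of 0.60 did not pass the test (95% interval -0.18 to 1.38, adjusted p = 0.442). That interval uses 1 spread over all 7 groups, of which weeks 7 and 9 varied most. With untreated and week 5 arrays alone the change was not called either. Weeks 7 and 9 averaged 9.31 ± 0.95 and 8.91 ± 1.03 (SD, n = 5 each). A second probe set of Cp was dim, with group means of 1.49 to 2.15, and its changes were 0.37 at week 7 (adjusted p = 0.0916) and -0.04 at week 9 (adjusted p = 0.890). With the mean of both probe sets, Cp rose by 1.58 at week 7 (adjusted p = 3.36e-05) and by 1.17 at week 9 (adjusted p = 0.00141), less than Fgg and Fga did. Adjusted for the beta-actin ratio, the week 9 change of Cp was 2.82 and that of Fgg 3.33.

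Of 17 genes that handle haemoglobin, iron or copper, 16 were measured, with 7 called higher and 1 lower at week 7 and the same counts at week 9. At week 9 the largest changes were those of Lcn2, which encodes the siderophore-binding lipocalin 2 (3.64, adjusted p = 0.00322), Slc11a1, a metal transporter of phagocytes (1.32, adjusted p = 0.00149), Tfrc, the transferrin receptor (-1.13, adjusted p = 0.00169), and Trf, transferrin (0.96, adjusted p = 0.0192). Heph, a ferroxidase related to ceruloplasmin, rose by 0.69 (adjusted p = 0.0397), and Slc40a1, the iron exporter ferroportin, by 0.64 (adjusted p = 0.00560). These last 2 were chosen after their values were seen.

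Haptoglobin, the plasma protein that binds free haemoglobin, gave no call at any week. Hp had 5.71, 6.23, 4.34, 5.24 and 4.78 at week 7, and 5.98, 5.61 and 4.23 in untreated kidneys. At week 9 Hp had 5.40, 5.26, 5.72, 4.98 and 4.99. Of these 10 late kidneys, 1 lay above the untreated range, the week 7 kidney at 6.23, and the others lay inside it. The changes were -0.01 at week 7 (95% interval -0.79 to 0.76, adjusted p = 0.986) and 0.00 at week 9 (-0.78 to 0.77, adjusted p = 0.996). These arrays do not exclude changes inside these intervals. Hp was highest at week 5, at 5.92, 5.53, 5.50, 6.03 and 6.13, with a change of 0.55 (95% interval -0.23 to 1.33, adjusted p = 0.489). This change was 0.03 without replicate 3 of the untreated kidneys (adjusted p = 0.988) and 0.90 without replicate 1 (adjusted p = 0.308). The direction at weeks 7 and 9 turned under several settings, with 0.54 and 0.60 after adjustment for the beta-actin ratio, and 0.34 and 0.35 without replicate 1 of the untreated kidneys. Hpx, which encodes the haem carrier hemopexin, had changes of -0.24 at week 7 (adjusted p = 0.383) and -0.38 at week 9 (adjusted p = 0.148), and was picked after its values were seen.

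The serum amyloid A genes encode small apolipoproteins that rise steeply in blood during inflammation, Saa1 mainly from liver and Saa3 in mouse mainly from other tissues and macrophages. Saa1 had 2.22, 3.44, 3.38, 2.67 and 3.83 at week 7, and 2.43, 2.27 and 2.59 in untreated kidneys. At week 9 Saa1 had 3.03, 2.20, 2.29, 2.68 and 4.70. In 4 of 5 kidneys at week 7 and 3 of 5 at week 9 Saa1 lay above all untreated kidneys, and the groups overlapped at both weeks. The changes were 0.68 at week 7 (95% interval -0.00 to 1.35, adjusted p = 0.172) and 0.55 at week 9 (-0.13 to 1.23, adjusted p = 0.279). Adjusted for the beta-actin ratio, Saa1 was called at week 7 (1.41, adjusted p = 0.0297). Without replicate 5 of week 9, the kidney at 4.70, the week 9 change was 0.12 (adjusted p = 0.783). From weeks 1 to 5 the Saa1 values ran between 1.89 and 2.66, around or below the untreated ones. Saa1 lies next to its near-identical copy Saa2, whose probe sets could read both, and Saa2 changed by 0.71 at week 7 (adjusted p = 0.0378).

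Saa3 was called at week 7 and at no other week. It had 3.66, 4.87, 3.78, 3.22 and 3.84 at week 7, and 3.44, 3.24 and 2.78 in untreated kidneys, with 1 of the 5 treated kidneys inside the untreated range. The change was 0.72 ± 0.23 (SE), or 1.65-fold (adjusted p = 0.0268). It rested on single kidneys, since the adjusted p was 0.0955 without replicate 2 of week 7, whose 4.87 was the highest Saa3 value of all, and 0.186 without replicate 3 of the untreated kidneys. It was 0.193 with untreated and week 7 arrays alone, and 0.0669 and 0.0777 with arrays weighted singly or by group, and adjusted for the beta-actin ratio the change was 1.13 (adjusted p = 0.0144). At week 9 Saa3 had 3.49, 3.42, 3.34, 3.30 and 3.74, a change of 0.31 (adjusted p = 0.400), and at week 5 it had 4.05, 3.67, 3.57, 3.75 and 3.19, a change of 0.50 (adjusted p = 0.250).

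Of the other acute phase proteins, 29 of 35 listed genes were measured. At week 7, 10 were called higher and 2 lower (Alb and Ttr), and at week 9, 6 higher and 1 lower (Alb), with medians of 0.36 and 0.04. The largest week 9 changes were those of Lcn2 (3.64), Il1rn, which encodes the interleukin 1 receptor antagonist (2.67, adjusted p = 1.44e-05), Cd14, a receptor for bacterial lipopolysaccharide (2.20, adjusted p = 0.00178), and Alb, albumin, whose transcript falls in liver during the acute phase (-1.89, adjusted p = 0.0273). At week 7 the same genes changed by 4.34, 2.75, 2.03 and -1.81. Serping1, the C1 inhibitor, was already called at week 1 (1.16, adjusted p = 0.0172), as was Cfb, complement factor B (0.69, adjusted p = 0.0241). At week 5, Il1rn (1.59, adjusted p = 0.0132) and Trf (1.01, adjusted p = 0.0395) were called. Crp and Apcs, the classic pentraxins, did not pass at week 9, with changes of -0.17 (adjusted p = 0.346) and 0.04 (adjusted p = 0.890). These pentraxins were chosen after their values were seen.

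C/EBPδ and C/EBPβ are leucine zipper transcription factors induced by inflammatory cytokines. Cebpd rose at both late weeks and Cebpb at week 7. Cebpd had 6.62, 6.96, 6.71, 5.21 and 6.93 at week 7, and 4.72, 4.42 and 4.92 in untreated kidneys. At week 9 Cebpd had 6.34, 5.07, 6.14, 6.54 and 6.47. No late kidney overlapped the untreated ones, and in each week 1 kidney lay apart, at 5.21 and 5.07, inside the range of weeks 1 to 5. The change was 1.80 ± 0.33 (SE), or 3.49-fold, at week 7 (adjusted p = 3.22e-04) and 1.42 ± 0.33, or 2.68-fold, at week 9 (adjusted p = 0.00427). Cebpd averaged 4.69 ± 0.25 in untreated kidneys (SD, n = 3) and 4.90 ± 0.44, 4.89 ± 0.49, 4.64 ± 0.37, 4.53 ± 0.40, 6.49 ± 0.73 and 6.11 ± 0.60 at weeks 1, 2, 3, 5, 7 and 9 (SD, n = 5 each). The means before week 7 lay within 1 SD of the untreated mean.

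Cebpb had 6.71, 6.90, 6.41, 6.23 and 7.03 at week 7, and 5.99, 5.91 and 6.47 in untreated kidneys, so that 2 of the 5 treated kidneys lay inside the untreated range. At week 9 it had 6.18, 6.25, 6.19, 6.44 and 6.73. The change was 0.54 ± 0.19 (SE), or 1.45-fold, at week 7 (adjusted p = 0.0447) and 0.24 at week 9 (adjusted p = 0.429). Few settings kept the week 7 call, among them the adjustment for the beta-actin ratio (0.97, adjusted p = 0.00779). The adjusted p was 0.161 and 0.182 without replicates 1 and 2 of the untreated kidneys, 0.0769, 0.103 and 0.126 without replicates 1, 2 and 5 of week 7, and between 0.0807 and 0.921 in 6 other settings, the highest with the mean of its 3 probe sets (a change of 0.03). Its other 2 probe sets, with group means of 3.09 to 3.58 and 2.84 to 3.34, had changes of 0.06 (adjusted p = 0.877) and -0.51 (adjusted p = 0.0877) at week 7.

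Socs3 encodes the STAT3-induced inhibitor of gp130 signalling. It had 4.38, 4.73, 4.30, 3.32 and 4.27 at week 7, and 3.42, 3.58 and 3.32 in untreated kidneys. At week 9 it had 4.89, 3.04, 3.67, 4.70 and 3.93. In 4 of 5 kidneys at each of these weeks Socs3 lay above all untreated kidneys, with the fifth at 3.32 and 3.04. The changes of 0.76 at week 7 (95% interval 0.06 to 1.46, adjusted p = 0.132) and 0.61 at week 9 (-0.09 to 1.30, adjusted p = 0.244) did not pass. Without replicate 4 of week 7 the week 7 change was 0.98 and passed (adjusted p = 0.0365), and without replicate 1 of week 9 the week 9 change was 0.39 (adjusted p = 0.506). The week 1 values of Socs3 were 2.72, 3.30, 2.61, 2.81 and 3.74, mostly below the untreated ones.

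Of the other C/EBP and SOCS genes, 10 of 12 were measured. At week 7, Socs2, an inhibitor of growth hormone signalling, was called higher (1.49, adjusted p = 7.22e-04), as was Socs7 (0.30, adjusted p = 0.0431), and Cebpa, a C/EBP factor of differentiated epithelium, was called lower (-0.57, adjusted p = 0.0206). At week 9 Socs2 alone was called (1.39, adjusted p = 0.00189). The medians of the list were 0.21 and -0.12. Counts this small are near the shares over all probe sets (9.85% higher and 5.82% lower at week 7, 6.41% and 7.53% at week 9).

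In the interleukin 6 family and its STAT3 pathway, 19 of 22 genes were measured, and 6 were called higher and 0 lower at each of weeks 7 and 9. Among the receptors, Osmr, the oncostatin M receptor, rose by 1.80 at week 7 (adjusted p = 1.34e-04) and 1.36 at week 9 (adjusted p = 0.00328). Osmr had 9.41, 9.42, 8.65, 7.82 and 9.75 at week 7, 9.16, 7.67, 7.88, 8.91 and 9.21 at week 9, against 7.44, 7.04 and 7.16 in untreated kidneys, without overlap, and replicate 4 of week 7 and replicate 2 of week 9 were again the lowest of their weeks. Il6st, which encodes gp130, rose by 1.08 (adjusted p = 7.23e-05) and 0.81 (adjusted p = 0.00212). Il6ra, the chain that binds interleukin 6 itself, had changes of -0.06 and -0.05 (adjusted p = 0.861 and 0.872). Among the ligands, Lif rose by 1.41 at week 7 (adjusted p = 0.00183) and 1.05 at week 9 (adjusted p = 0.0224). Il6 had a very low signal, with 2.46, 2.01, 1.13, 1.57 and 3.55 at week 7, and 1.53, 1.20 and 1.41 in untreated kidneys, and its changes of 0.77 (adjusted p = 0.0701) and 0.51 (adjusted p = 0.254) did not pass. Stat3 rose by 1.07 at week 7 (adjusted p = 6.36e-05) and 0.82 at week 9 (adjusted p = 0.00161), and Bcl3, a partner of NF-κB subunits, was called at week 9 (1.08, adjusted p = 0.0422). Il6, Il6ra and Il6st were picked as the ligand and receptor chains of the textbook pathway after their values were known. At weeks 1, 2, 3 and 5, 0 of the 19 genes were called.

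**Figure D4:**
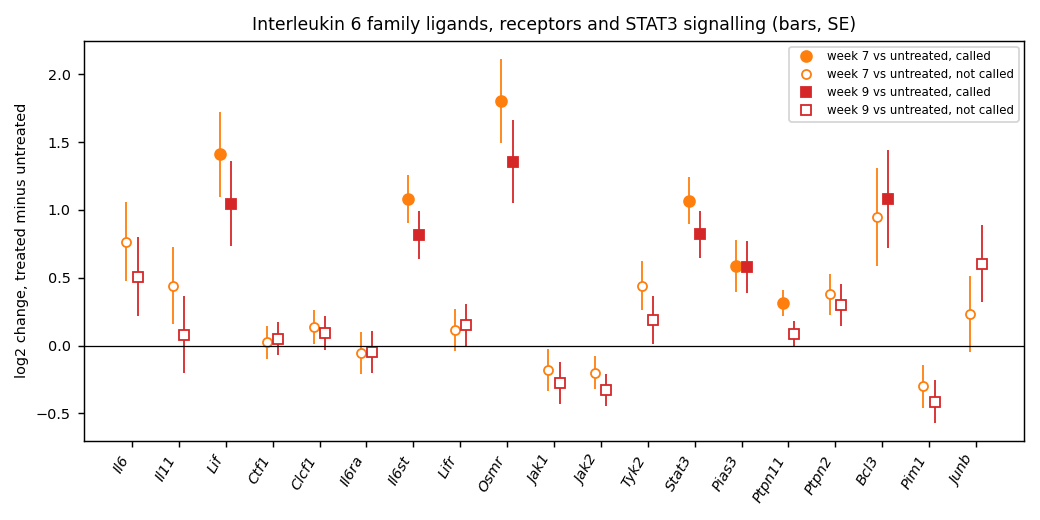
Log2 change against untreated kidneys (vertical axis, bars SE) of the 19 measured genes of the interleukin 6 family and STAT3 pathway at week 7 (orange circles) and week 9 (red squares), filled where the limma adjusted p was below 0.05. The filled points of Lif, Il6st, Osmr and Stat3 lie above 0 at both weeks, between 0.81 and 1.80, and Il6ra, Jak1 and Jak2 lie slightly below 0 and are open.

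Genes of the interleukin 1, TNF and NF-κB pathway gave calls from week 5 on, with 4 of 19 measured genes (20 listed) higher at week 5, namely Irak3, Tnfrsf1b, Il1b and Tnfaip3, then 11 at week 7 and 9 at week 9, and 0 lower at these weeks. At week 9 the largest changes were those of Nfkbiz, a nuclear cofactor of NF-κB (1.95, adjusted p = 2.39e-05), Irak3, a brake on interleukin 1 signalling (1.88, adjusted p = 9.23e-06), Il1b, interleukin 1β (1.49, adjusted p = 0.00261), and Tnfrsf1b, a TNF receptor of leukocytes (1.41, adjusted p = 0.00126). In week 5 kidneys Il1b had 7.46, 5.81, 5.99, 6.63 and 6.70, and in untreated kidneys 5.76, 5.20 and 4.95, a change of 1.22 (adjusted p = 0.0367). At week 7 the change of Il1b was 0.58 and did not pass (adjusted p = 0.252). Il1b was thus called at weeks 5 and 9 and not at week 7. Of the 10 acute phase genes, 0 were called at week 5, 6 at week 7 and 4 at week 9. A link between their course and that of Il1b was not tested.

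Between treated weeks, which share no untreated kidneys, the members were compared with limma in the same fit. For week 7 against week 5, 6 of 10 genes were called higher and 0 lower, beside 4.72% of all probe sets higher and 3.77% lower. Cp was higher by 2.18 ± 0.33 (SE, adjusted p = 1.61e-04), Cebpd by 1.96 ± 0.29 (adjusted p = 1.47e-04), Fga by 1.39 ± 0.31 (adjusted p = 0.00365) and Fgg by 1.27 ± 0.34 (adjusted p = 0.0166). Cp and Cebpd did not overlap between the 2 weeks, beside 2.64% of all probe sets. Saa1 (0.92, adjusted p = 0.0391) and Cebpb (0.56, adjusted p = 0.0245) were called as well, and Socs3 was not (0.87, adjusted p = 0.0613). The calls of Fgg, Saa1 and Cebpb were lost without single kidneys, and 3 genes (Fga, Cp and Cebpd) were left in each case without replicate 2 of week 5, replicate 2 of week 7 or replicate 5 of week 7. With arrays of weeks 5 and 7 alone, 2 were called (Cp and Cebpd).

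For week 9 against week 1, 5 of 10 genes were called higher and 0 lower, beside 4.64% of all probe sets higher and 4.64% lower. The changes were 1.99 for Cp (adjusted p = 1.57e-04), 1.82 for Fgg (adjusted p = 6.75e-04), 1.38 for Fga (adjusted p = 0.00326), 1.21 for Cebpd (adjusted p = 0.00581) and 1.01 for Socs3 (adjusted p = 0.0245). Fga, Fgg and Cp did not overlap between the 2 weeks, beside 3.03% of all probe sets. The Socs3 call was lost without replicates 1, 3 or 4 of week 1 (adjusted p = 0.0638, 0.0724 and 0.0572) or replicates 1 or 4 of week 9 (0.117 and 0.0954). Saa1, at 0.79 (adjusted p = 0.0796), passed without replicates 2 or 3 of week 9 (adjusted p = 0.0225 and 0.0306) and after adjustment for the beta-actin ratio (0.92, adjusted p = 0.025), but was 0.36 without replicate 5 of week 9 (adjusted p = 0.340), and Cebpb, at 0.37 (adjusted p = 0.156), passed without replicate 4 of week 1 (adjusted p = 0.0408). Week 9 against week 7 gave 0 of 10 calls, with changes between -0.42 and 0.01, beside 0.0111% of all probe sets higher and 0.0577% lower.

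The late weeks were not uniform. Replicate 4 of week 7 was the lowest of its week in 6 of the 10 genes (Fga, Cp, Saa3, Cebpb, Cebpd and Socs3), and replicate 2 of week 9 was the lowest of its week in 7 (Fga, Fgb, Fgg, Cp, Saa1, Cebpd and Socs3). Replicate 2 of week 7 was the highest of its week in 6 genes and replicate 5 of week 9 in 5. Lcn2, whose values ran alongside, had 9.55, 9.93, 8.53, 4.30 and 9.21 at week 7 and 8.84, 4.82, 5.90, 9.94 and 8.55 at week 9, against 4.37, 3.78 and 3.75 in untreated kidneys. Its 3 lowest late kidneys were the 3 in which Cp was lowest. Of 12 tubular injury genes, 11 were measured, and 11 were called higher at week 7 and 10 at week 9, with medians of 1.80 and 1.50. Beside Lcn2, the largest at week 9 were Havcr1, which encodes kidney injury molecule 1 (2.65, adjusted p = 2.08e-04), Vcam1, an adhesion molecule (1.97, adjusted p = 4.5e-05), and Timp1, an inhibitor of metalloproteinases (1.77, adjusted p = 0.00802). Lcn2, Trf, Cd14 and a few other genes stand in more than 1 of the lists, so the counts of the lists are not independent.

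Markers of cell types that could bring acute phase transcripts were read in the same arrays. The summed linear signal of 13 of 14 hepatocyte markers was 363 to 1058 at week 7 (median 490) and 352 to 994 at week 9 (median 469), and 1013 to 1141 in untreated kidneys (median 1138). In 9 of the 10 late kidneys this sum lay below all untreated kidneys. The highest sums of the late weeks were in replicate 4 of week 7 and replicate 2 of week 9. At week 1 it was 1025 to 1579, highest in replicate 4, and at week 5 it was 902 to 2036, highest in replicate 3. Which cells gave this signal, in untreated or late kidneys, was not tested, so its fall is not a measure of hepatocyte RNA. The part of hepatocytes in the changes of the acute phase genes was not tested. At week 9, 0 of the 13 were called higher and 4 lower (Alb, Cps1, C8a and Apob), and at week 7, 0 higher and 3 lower (Alb, C8a and Apob). Macrophage and monocyte markers, 11 of 12 measured, had a summed signal of 312 to 361 at week 1, when 1 was called higher, and of 363 to 599 at week 5, when 3 were, and 247 to 273 in untreated kidneys, while 0 of the acute phase genes were called at those weeks. Their summed signal was 435 to 1047 at week 7 (median 793) and 562 to 1716 at week 9 (median 1148), and 247 to 273 in untreated kidneys (median 250). Of these, 9 were called higher at each of both weeks. Their part in the changes of the acute phase genes was not tested. Neutrophil markers, 10 of 12 measured, summed to 56 to 73 at week 7 and 62 to 83 at week 9, and 64 to 79 in untreated kidneys, with Mmp8 called higher at week 7 (0.35) and S100a8 lower at week 9 (-0.56). These ranges overlapped. Red cell markers, 3 of 6 measured, summed to 97, 82 and 149 in replicates 2, 3 and 5 of week 7, the kidneys of that week with high Fgg, and to 693 and 1266 in its replicates 1 and 4, against 470 to 809 in untreated kidneys. At week 9 they summed to 735 to 1760. Slc4a1, an anion exchanger, was called lower at weeks 7 and 9 (-1.34 and -1.22) and Alas2, an enzyme of haem synthesis, higher at week 9 (1.21). The 3 red cell markers thus did not move together at week 9. All 6 endothelial markers were measured, with Kdr and Egfl7 called lower at both weeks (-0.57 and -0.54 at week 7) and 0 higher, and their sums were 901 to 1316 at week 7 and 842 to 1119 at week 9, and 1082 to 1169 in untreated kidneys. The part of red cells and endothelium in the changes of the acute phase genes was not tested. Of 12 kidney markers, 8 were measured, and their summed signal was 8978 to 13354 at week 7 and 9626 to 14702 at week 9, and 12041 to 12914 in untreated kidneys, with the highest value of each late week in replicate 4 of week 7 and replicate 2 of week 9.

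**Figure D5:**
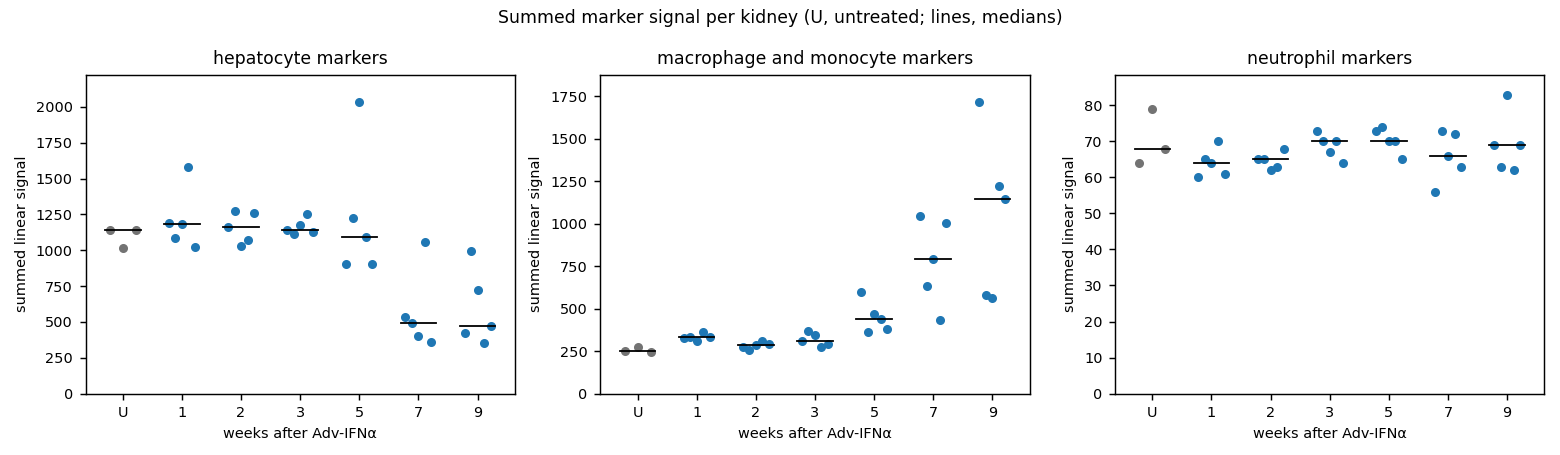
Summed linear array signal of hepatocyte, macrophage and monocyte, and neutrophil markers (vertical axes, own scale from 0) in untreated kidneys (U, grey, n = 3) and at each week after Adv-IFNα (blue, n = 5 per week), 1 point per kidney, with lines at the medians. Hepatocyte marker signal has its lowest medians at weeks 7 and 9 (490 and 469). Macrophage and monocyte marker signal has its highest medians there (793 and 1148), and neutrophil marker signal is level.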

How the data were processed

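The kidneys of 3 untreated and 30 Adv-IFNα treated BWF1 mice were profiled on Affymetrix HT MG-430 PM arrays, 1 array per mouse, and the design text describes separate mice. The authors deposited log2 RMA intensities, in which background is removed, arrays are brought to 1 distribution and probes are combined into probe sets. As the table states no base for its logarithms, log2 was inferred from the range of 0.585 to 13.9. The submitters' notes on processing list RMA and Partek, with no version of either. Every per-sample column was matched to a sample. Array signal has no count behind it, and the number of arrays limits the precision.

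Of 45141 probe sets, 104 controls were left out. GEO's platform annotation paired 28898 of the remaining 45037 with 1 symbol, 551 with several and 15588 with none, and genes were named from the first kind. All 33 arrays entered 1 limma 3.58.1 fit (R 4.3.3, lmFit and eBayes) with 7 group means and 26 residual degrees of freedom, and a probe set was called at an adjusted p below 0.05 (Benjamini-Hochberg over 45037). The fit was also run on simulated data with 1 spread per probe set for all groups, which does not cover the larger spread of the late weeks. Single genes were also tested with an exact two-sided permutation test, and pairs of genes with 100000 permutations. Named were all 10 members, from each list up to 4 called genes by the size of the week 9 change, and any gene needed to account for a count of 5 or fewer. Genes outside this rule are given as such. The members, the gene lists and the motifs were chosen with earlier results of these data known. Alternatives were the 2 groups compared alone, array weights, an intensity trend, all probe sets of a gene averaged, a replicate block, adjustment for the beta-actin ratio, quantile normalization again, a 2-fold minimum, dim probe sets left out, and leaving out each array in turn. Array weights per group were added after the data were seen.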

Additional observations from a re-analysis of the deposited data

Results flagged for a closer look

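In 60 groups of 5 kidneys (10 genes at 6 weeks), a single kidney lay far from the other 4 of its group in 4 cases, where chance alone flags about 1 group in 20. Cp was at 6.44 in replicate 1 of week 1, where the other 4 kidneys were at 7.00 to 7.09. In replicate 4 of week 7, Cp was at 7.65 (the others at 9.53 to 9.98) and Cebpd at 5.21 (the others at 6.62 to 6.96). In replicate 2 of week 9, Cebpd was at 5.07 (the others at 6.14 to 6.54).

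The change against untreated kidneys differed between weeks for several genes, by the limma test of the treated weeks against each other. Between weeks 9 and 1 it was larger at week 9 by 1.38 for Fga, 1.82 for Fgg, 1.99 for Cp, 1.21 for Cebpd and 1.01 for Socs3. Between weeks 7 and 5 it was larger at week 7 by 1.39 for Fga, 1.27 for Fgg, 2.18 for Cp, 0.92 for Saa1, 0.56 for Cebpb and 1.96 for Cebpd. The adjusted p of these differences lay between 1.47e-04 and 0.0391.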

How the results depend on the processing

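Cp, Fgg and Cebpd kept their calls at weeks 7 and 9 under all alternatives run, and Fga did so at week 9. For weeks 5, 7 and 9 against untreated kidneys, week 9 against week 1 and week 7 against week 5, 435 member changes were recomputed under other settings, of which 404 kept their direction and side of the threshold, and of 440 with 1 kidney left out, 390 did. Of the 50 changes behind these totals, 21 were called in the full fit, so many of those kept were uncalled throughout. Calls were lost in 16 of the 435 and in 27 of the 440. With the 2 groups compared alone, the members called higher were 1 at week 5 (Fgg), 3 at week 7 and 2 for week 7 against week 5, and over all probe sets 1710 were then called higher and 559 lower at week 7, against 4438 and 2619 in the full fit. At week 9 the 2 groups alone gave 1188 higher and 865 lower, against 2885 and 3393. Adjusted for the beta-actin ratio, 1 member (Fgg) was called at week 5, and over all probe sets 3039 were higher and 1200 lower at week 7 and 1506 and 699 at week 9. Array weights gave 3029 and 1582 at week 7 and 2035 and 1908 at week 9, and weights per group 2696 and 1331, and 1802 and 1508. With a 2-fold minimum as well, 1060 were higher and 384 lower at week 7, and 891 and 210 at week 9. Leaving out 1 kidney, the members called for week 7 against week 5 ranged from 3 to 7. For weeks 1 to 3 and week 9 against week 7, 41 of 688 recomputed changes turned sign and 0 passed the threshold, with Saa1 reaching 0.43, 0.30 and 0.36 at weeks 1, 2 and 3 after adjustment for the beta-actin ratio. In the other comparisons the following values changed sign, none of them past the threshold, and the cause was not tested. Adjusted for the beta-actin ratio they were 0.31 for Saa1, 0.30 for Cebpb and 0.29 for Cebpd at week 5, and 0.54 and 0.60 for Hp at weeks 7 and 9. Cebpb was 0.01 at week 5 with array weights and -0.20 at week 9 with the mean of its probe sets, and Hp was 0.01 at week 9 after quantile normalization. With 1 kidney left out, Hp ranged from -0.54 to 0.34 at week 7 and from -0.52 to 0.35 at week 9, Cebpb from -0.13 to 0.15 and Socs3 from -0.27 to 0.09 at week 5, and Saa3 from -0.02 to 0.14 for week 9 against week 1 and from -0.03 to 0.39 for week 7 against week 5. Replicate numbers did not pair the kidneys: over 93 pairs with the same number, deviations from the group means correlated between -0.35 and 0.27 (median -0.006), and 10 of 33 arrays matched their own number best. With the replicate number as a block, 5 members in place of 6 were called at week 7 (without Cebpb, 0.48, adjusted p = 0.101), and no other member call changed. For Fga, Fgg, Cp and Cebpd the SD of each late week was larger than that of each earlier treated week, and dim probe sets (Saa1, Saa3 and Socs3) show compressed changes.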

Other observations

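Over the 33 arrays, the named genes outside the members whose values were most like the mean of the standardised fibrinogen chains were Tnfrsf12a (Pearson 0.877, Spearman 0.666), Timp1 (0.876 and 0.724), Tsc22d1 (0.874 and 0.700), Hbegf (0.871 and 0.705) and Adamts4 (0.870 and 0.752). For Cebpd they were Tsc22d1 (0.911 and 0.716), S100a11 (0.894 and 0.647) and Lcn2 (0.892 and 0.589). These correlations pool 7 groups with different means and are given as a description.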
